A study of Canis lupus familiaris with 6 samples.

Results

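Proteasome genes were described in stem cells grown out of dog fat (canine adipose-derived stem cells), whose messenger RNA was sequenced after 14 days in a fat-forming medium. The proteasome was picked with earlier results of these data known, and its genes were then taken by name: every name in the deposited table that starts with PSMA, PSMB, PSMC, PSMD, PSME or PSMF followed by a number, without PSMB8 and PSMB9, which left 43 of 23299 names. Cells of 3 libraries received 1 µM bisphenol A (BPA), a plastic monomer that binds oestrogen receptors, and cells of the other 3 received the solvent DMSO (control). All 6 libraries came from cells kept in the same medium, given once the cells had grown for 2 days. That medium contained insulin at 10 µg/mL, rosiglitazone, a drug that activates the fat-cell receptor PPARG, at 200 nM, and dexamethasone, a synthetic steroid hormone, at 1 µM. The labels do not say how many dogs or separate cultures the replicates stand for, so the spread between them may be technical, and whether a library holds less proteasome RNA per cell or a different mix of cells cannot be told apart in bulk RNA. The design asks how BPA alters gene expression in differentiating canine fat cells.

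The proteasome is the barrel-shaped protease that degrades proteins tagged with ubiquitin. Its core particle stacks outer rings of alpha subunits (PSMA genes), which form the gate, on inner rings of beta subunits (PSMB genes), of which PSMB5, PSMB6 and PSMB7 carry the proteolytic sites. A regulatory cap sits on the core: its base holds a ring of ATPases (PSMC genes) that unfold substrates together with PSMD1, PSMD2 and PSMD4, which bind ubiquitin or its carriers, and its lid (the other structural PSMD genes) removes ubiquitin. Other caps, made from PSME gene products, open the core without ubiquitin, and PSMF1 binds the core and was first described as its inhibitor. Structural subunits occur in equal number within the core and within the cap. Cells short of proteasome activity raise these genes together through the transcription factor NFE2L1.

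Of the 43 names, 14 belong to the constitutive core (7 alpha and 7 beta), 9 to the base and 8 to the lid. A further 3 (PSMD5, PSMD9 and PSMD10) are chaperones of base assembly, 5 are activators or the inhibitor, and PSMB10 and PSMA8 are an inducible and a testis-restricted core subunit. PSMC3IP, a meiotic recombination factor, and PSME3IP1, a partner of PSME3, matched by name and are not subunits. Levels are given in TPM, a share of the library's total transcripts that is already divided by gene length. To be tested, a gene needed log2(TPM + 1) to average 1 or more. All but PSMA8 passed, which left 42, and PSMA8 lay between 0.021 and 0.067 TPM. PSMB11, a thymic subunit, was not analysed here.

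BPA replicate 3 stood apart from the other libraries, and this touches nearly every value below. The first principal component of 12277 tested genes held 79.8% of the variance and placed BPA replicates 1, 2 and 3 at -29.9, -0.10 and 61.1, against -28.1, 11.3 and -14.4 for control replicates 1, 2 and 3. The median log2(TPM + 1) of all tested genes was 3.54, 3.62 and 3.76 in the BPA libraries and 3.49, 3.64 and 3.53 in the control libraries. Fat-cell markers were present in all 6 libraries. The 6 adipocyte markers summed to 872, 890.2 and 621 TPM with BPA, against 670.3, 713 and 605 TPM in control, mostly LPL and LEP. ADIPOQ, PLIN1, FABP4 and CIDEC lay higher with BPA without overlap, with log2 changes of 1.555, 1.35, 1.18 and 1.26. LEP lay lower without overlap (-0.24), and LPL overlapped (0.19). Of all tested genes 5.38% lay higher and 3.98% lower without overlap. By limma 0 of 6 passed the adjusted test, beside 0% of all tested genes. At an unadjusted p under 0.05 by limma 4 of the 6 lay higher and 1 lower, beside 1.87% and 1.7% of all tested genes. The stromal progenitor list, of which 5 of 6 names were in the table, summed to 2528, 4489 and 24850 TPM with BPA. In control it summed to 2271, 8287 and 4020 TPM. Nearly all of this was collagen gene COL1A1, while the surface marker NT5E stayed at or below 0.22 TPM in every library. PDGFRA lay higher with BPA without overlap (log2 change 0.49, and 0.35 without BPA replicate 3). PDGFRB, ENG and COL1A1 overlapped, with log2 changes of 0.61, 0.50 and 0.63. Without BPA replicate 3 these 3 changes were -0.11, -0.12 and -0.35. Endothelial markers summed to at most 0.81 TPM over 5 genes, the 2 measured epithelial keratins to at most 0.37 TPM, and the leukocyte marker PTPRC to at most 0.0066 TPM. Other leukocyte markers were not at 0. The 4 measured names summed to 30.7, 39.6 and 51.8 TPM with BPA and to 30.5, 39.2 and 28.0 TPM in control, mostly CD14. CSF1R lay lower with BPA without overlap (log2 change -0.19), and CD14, CD68 and PTPRC overlapped. The 4 measured smooth muscle markers were abundant and summed to 8449, 9645 and 10460 TPM with BPA. In control they summed to 9706, 10880 and 10460 TPM. CNN1 lay lower with BPA without overlap (-0.30), and ACTA2, TAGLN and MYH11 overlapped. The 4 cycling markers summed to 53.7, 47.4 and 50.7 TPM with BPA, against 47.7, 48.0 and 46.1 TPM in control. TOP2A lay higher with BPA without overlap (0.22), and MKI67, CCNB1 and CDK1 overlapped. PDGFRA, CNN1 and TOP2A had an unadjusted p under 0.05 by limma, and CSF1R did not. The part of these differences in the proteasome values was not tested.

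Together the 43 genes took 0.433%, 0.417% and 0.356% of all TPM in BPA replicates 1, 2 and 3, against 0.442%, 0.411% and 0.433% in the controls. The BPA and control libraries thus overlapped, with the lowest share in BPA replicate 3. No proteasome gene passed the test between BPA and control. By limma with Benjamini-Hochberg adjustment over all tested genes 0 of 42 had an adjusted p under 0.05 (from 0.901 to 0.995), and 0 had an unadjusted p under 0.05, against 0% of all tested genes adjusted and 1.87% higher and 1.7% lower unadjusted. Their log2 changes lay between -0.30 (PSME2) and 0.22 (PSME3), 32 below control and 10 above, with a median of -0.08 beside 0.03 over all tested genes, of which 43.4% lay below. That count depended on the libraries used: without BPA replicate 3, 16 of 42 lay below control and the median was 0.01. Without both BPA replicate 3 and control replicate 2, 25 of 42 lay below and the median was -0.02.

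Genes whose products occur in equal number within the core, or within the cap, differed widely in level within each library. PSMB4, a structural beta subunit, had the highest level of all 43, 855, 759.8 and 581 TPM in BPA replicates 1, 2 and 3, against 845, 741 and 788 TPM in control replicates 1, 2 and 3. The ATPase gene PSMC6 had the lowest level of the structural subunits, 1.21, 0.972 and 0.889 TPM in BPA replicates 1, 2 and 3, against 1.32, 0.908 and 1.02 TPM in control replicates 1, 2 and 3. The ratio of PSMB4 to PSMA1, the lowest alpha gene, was 117, 136 and 131 with BPA and 127, 129 and 129 in control, so this gap was of like size in every library. Within the base, PSMC5 exceeded PSMC6 by 249, 299 and 287 times with BPA and by 222, 303 and 279 times in control. These ratios compare annotated genes: proteasome genes have near-identical processed copies in mammalian genomes, and how reads shared with such copies were counted is not given in the sources used here, so the low values of genes such as PSMC6 and PSMA1 are uncertain.

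Ordered by mean TPM over the 6 libraries, PSMB4 was followed by PSMB6 (321 ± 23.9 TPM, SD over 6 libraries), PSMD8 (289 ± 36.0), PSMC5 (284 ± 16.7), PSMD2 (282 ± 34.6), PSMA7 (271 ± 37.8) and PSMB5 (225 ± 18.5). The range of PSMB4 over the 6 libraries did not overlap that of PSMB6, but from PSMB6 to PSMB5 each range overlapped the next. Ranges were compared across libraries, so an overlap does not mean that the order changed within a library. PSMB5, for example, had rank 7 in every library. Over the whole order of 43 genes, the ranges of 35 of 42 neighbouring pairs overlapped and 7 did not. The gaps lay below PSMB4, PSMB5, PSMD13, PSMB1, PSMC3, PSMA1 and PSMC6. Apart from PSMA7 and PSMA4, alpha genes averaged from 5.98 TPM (PSMA1) to 27.3 TPM (PSMA5), while beta genes ran from 18.5 TPM (PSMB7) and 30.7 TPM (PSMB2) to PSMB4. The alpha to beta ratio of summed TPM was 0.318, 0.319 and 0.303 with BPA and 0.322, 0.316 and 0.329 in control.

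**Figure D1:**
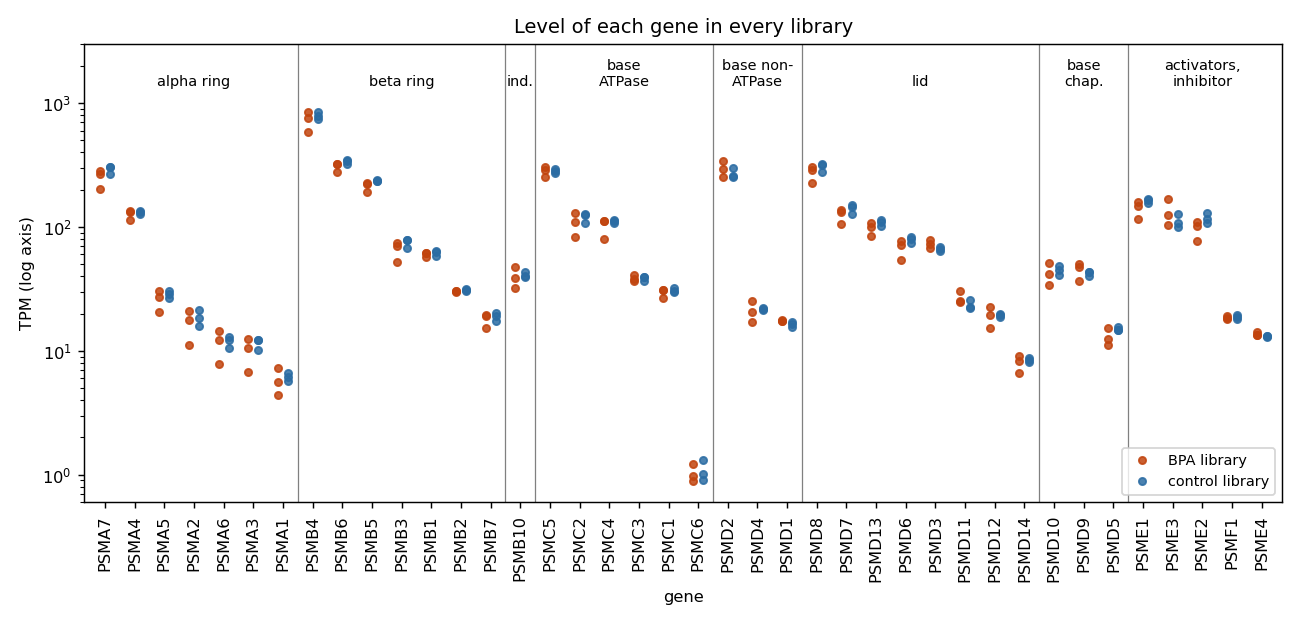
Level in TPM (log axis) of 40 proteasome genes, grouped by their place in the particle and ordered within each group by mean level; each point is 1 library, BPA left of control. Genes of 1 ring differ far more from each other than the 3 BPA libraries differ from the 3 control libraries, and PSMC6 stands alone near 1 TPM.

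The core genes varied together between libraries. The class mean of log2(TPM + 1), taken relative to the control mean of each gene, was 0.06, -0.05 and -0.39 in BPA replicates 1, 2 and 3, against 0.07, -0.10 and 0.03 in the controls. All 14 core genes were lowest of the 6 libraries in BPA replicate 3, where 42.4% of all tested genes were lowest. Within the control group 13 of 14 were lowest in control replicate 2, where 35.4% of all tested genes were, PSMB5 being the exception. BPA replicate 3 and control replicate 2 were also the libraries with the highest scores on the first principal component.

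The alpha ring varied most. PSMA2 had 21.1, 17.9 and 11.1 TPM in BPA replicates 1, 2 and 3, against 21.3, 15.9 and 18.4 TPM in control replicates 1, 2 and 3, a range of 0.88 on the log2(TPM + 1) scale that was the widest of the core. BPA replicate 3 was lowest and BPA replicate 1 lay with control replicate 1, so the groups overlapped. PSMA3, another subunit of this ring, had 12.4, 10.6 and 6.77 TPM in BPA replicates 1, 2 and 3, against 12.2, 10.1 and 12.2 TPM in control replicates 1, 2 and 3. PSMA6 followed the same order, 14.4, 12.1 and 7.87 TPM in BPA replicates 1, 2 and 3, against 13.1, 10.6 and 12.3 TPM in control replicates 1, 2 and 3. For these 3 genes BPA replicate 3 lay 0.75, 0.68 and 0.68 (log2 scale) below the mean of BPA replicates 1 and 2. PSMA7, the most abundant alpha gene and the one with the smallest p of its ring, had 282, 269 and 201 TPM in BPA replicates 1, 2 and 3, against 303, 268 and 304 TPM in control replicates 1, 2 and 3 (log2 change -0.23, SE 0.15, adjusted p = 0.901 by limma). BPA replicate 3 was its lowest library, and BPA replicates 1 and 2 overlapped the controls. PSMA1, the lowest alpha gene, had 7.31, 5.599 and 4.42 TPM in BPA replicates 1, 2 and 3, against 6.67, 5.76 and 6.11 TPM in control replicates 1, 2 and 3. PSMA5 averaged 26.1 ± 5.04 TPM in the BPA libraries, against 28.4 ± 1.87 TPM in the controls and PSMA4, the steadiest of the ring with a log2 range of 0.25, averaged 127 ± 11.9 TPM in the BPA libraries, against 132 ± 3.61 TPM in the controls. Without BPA replicate 3 the log2 changes of PSMA1 to PSMA6 lay between 0.0029 and 0.13, all above 0, and that of PSMA7 was -0.08.

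The catalytic subunits PSMB5, PSMB6 and PSMB7 had log2 ranges of 0.34, 0.32 and 0.37 over the 6 libraries. The median range was 0.34 for the beta ring and 0.62 for the alpha ring. PSMB5, which carries the chymotrypsin-like site that the drug bortezomib blocks, had 223, 227 and 190.0 TPM in BPA replicates 1, 2 and 3, against 242, 236 and 234 TPM in control replicates 1, 2 and 3. Each BPA library lay below each control library (log2 change -0.16, SE 0.10, adjusted p = 0.901 by limma). PSMB6, which carries the caspase-like site, had 320.4, 319.8 and 279 TPM with BPA, against 339, 321 and 348 TPM in control. These groups did not overlap either, but BPA replicates 1 and 2, at 320.4 and 319.8 TPM, lay next to control replicate 2 at 320.8 TPM (log2 change -0.14, SE 0.09, adjusted p = 0.901 by limma). Among all tested genes 3.98% lay lower with BPA without overlap, and among the proteasome genes 2 of 42 did. PSMB7, which carries the trypsin-like site, had 19.5, 19.1 and 15.4 TPM in BPA replicates 1, 2 and 3, against 20.2, 17.5 and 19.1 TPM in control replicates 1, 2 and 3, with overlap between the groups. Without BPA replicate 3 the log2 changes of PSMB5 and PSMB6 were -0.08 (SE 0.06) and -0.07 (SE 0.06).

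PSMB10, the interferon-inducible subunit that takes the place of PSMB7 in the immunoproteasome, had 38.5, 47.3 and 32.0 TPM in BPA replicates 1, 2 and 3, against 43.1, 39.4 and 40.3 TPM in control replicates 1, 2 and 3. BPA replicate 2 was highest, and BPA replicates 1 and 3 lay below the control libraries. PSMB10 exceeded PSMB7 in every library, by a ratio of 1.98, 2.48 and 2.08 with BPA and 2.13, 2.25 and 2.11 in control. PSMB7 averaged 18.5 TPM over all libraries, beside 225 TPM for PSMB5 and 321 TPM for PSMB6. How reads shared with gene copies were counted is not given, so the size of this ratio is uncertain. The other inducible subunits, which belong with the antigen presentation genes, stayed far below their constitutive counterparts. PSMB8 was at most 0.0241 of PSMB5, and PSMB9 at most 0.0608 of PSMB6.

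Structural beta genes ranged from steady to variable. PSMB2 was the steadiest of all structural subunits, 30.5, 30.6 and 30.1 TPM in BPA replicates 1, 2 and 3, against 31.3, 30.2 and 31.3 TPM in control replicates 1, 2 and 3, a log2 range of 0.06. PSMB1 averaged 60.2 ± 2.26 TPM in the BPA libraries, against 61.9 ± 2.95 TPM in the controls and had a log2 range of 0.15. PSMB3 and PSMB4 had wider ranges, 0.59 and 0.56, both with BPA replicate 3 lowest, and PSMB3 averaged 65.2 ± 11.4 TPM in the BPA libraries, against 75.1 ± 6.52 TPM in the controls. PSMB1, PSMB2 and PSMB3 were named after their values were seen, as were PSMA3 to PSMA6.

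**Figure D2:**
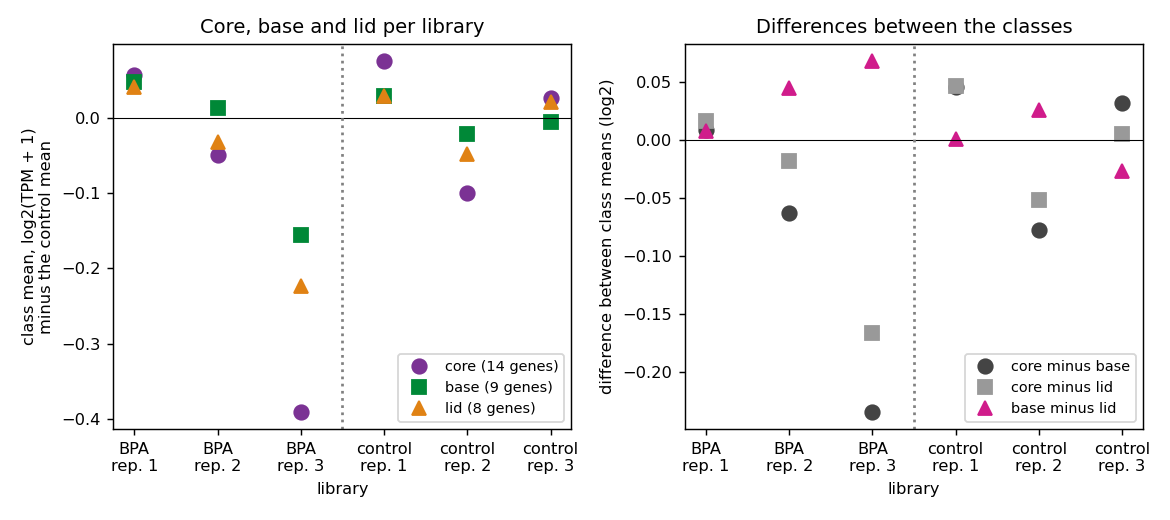
Left: mean of the core, base and lid genes in each library as log2(TPM + 1) minus the control mean of each gene. Right: differences between these class means. BPA libraries are left of the dotted line and control libraries right. All classes are lowest in BPA replicate 3, at -0.39 for the core, -0.16 for the base and -0.22 for the lid.

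Taken as a class mean, the base was more even between libraries than the core. Its class mean was 0.05, 0.01 and -0.16 in BPA replicates 1, 2 and 3, against 0.03, -0.02 and -0.01 in the controls. BPA replicate 3 was lowest for 6 of 9 base genes, of which 5 were ATPases. In that library the mean was -0.25 for the ATPases and 0.03 for PSMD1, PSMD2 and PSMD4 together. The alpha and beta rings of the core were at -0.50 and -0.28. The core lay below the base by 0.23 in BPA replicate 3, by 0.06 in BPA replicate 2 and by 0.08 in control replicate 2, and above it by 0.01 in BPA replicate 1 and by 0.05 and 0.03 in control replicates 1 and 3 (log2 scale, both relative to control). The median log2 change was -0.13 for the core and -0.04 for the base, with 14 of 14 and 6 of 9 genes below control. Without BPA replicate 3 both medians were 0.01, with 6 of 14 core and 1 of 9 base genes below control, and the BPA minus control value of core minus base was -0.03, against -0.10 with all libraries. With control replicate 2 also left out, the medians were -0.03 for the core and 0.03 for the base. Then 12 of 14 core and 4 of 9 base genes lay below control, and core minus base was -0.07. The difference between the classes was not tested, since the members were chosen with earlier results in view.

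The ATPases were mostly low in BPA replicate 3. PSMC2 had the smallest p of the ATPases and the widest range of the base, 129, 109 and 83.5 TPM in BPA replicates 1, 2 and 3, against 127, 107 and 126 TPM in control replicates 1, 2 and 3 (log2 change -0.18, SE 0.18, adjusted p = 0.901 by limma). The groups overlapped, with BPA replicate 1 the highest library, and without BPA replicate 3 the log2 change was -0.01 (SE 0.12). PSMC4 showed 1 low library, 111, 112 and 79.5 TPM in BPA replicates 1, 2 and 3, against 114, 107 and 111 TPM in control replicates 1, 2 and 3. PSMC5, the most abundant ATPase gene, had 303, 291 and 255 TPM in BPA replicates 1, 2 and 3, against 294, 275 and 285 TPM in control replicates 1, 2 and 3. Its BPA libraries spread around the controls. PSMC1 averaged 29.6 ± 2.47 TPM in the BPA libraries, against 31.0 ± 1.21 TPM in the controls. PSMC3 was the exception, lowest in BPA replicate 1 and highest in BPA replicate 2, at 38.7 ± 2.46 TPM in the BPA libraries, against 38.5 ± 1.76 TPM in the controls. Its log2 change was 0.0029 (SE 0.09) and turned below 0 under each of the 4 other scalings tried, at -0.0011 to -0.08.

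The large scaffold subunits of the base lay above control, without passing the test. PSMD2, which docks ubiquitin carriers and a deubiquitinase, had 253, 293 and 339 TPM in BPA replicates 1, 2 and 3, against 251, 297 and 258 TPM in control replicates 1, 2 and 3. Its highest library was BPA replicate 3 and the next were BPA replicate 2 and control replicate 2, so the groups overlapped (log2 change 0.13, SE 0.14, adjusted p = 0.901 by limma). PSMD1, its partner scaffold, had 17.5, 17.9 and 17.4 TPM in BPA replicates 1, 2 and 3, against 16.5, 17.0 and 15.5 TPM in control replicates 1, 2 and 3. Each BPA library lay above each control library, by a small margin (log2 change 0.10, SE 0.08, adjusted p = 0.901 by limma). Without BPA replicate 3 the log2 change of PSMD1 was 0.11 (SE 0.07) and that of PSMD2 0.02 (SE 0.11). Median centring and quantile normalization brought the PSMD1 change to 0.02 each. Of all tested genes 5.38% lay higher with BPA without overlap, and of the proteasome genes 2 of 42 did. PSMD4, the ubiquitin receptor placed between base and lid, had 25.2, 20.8 and 17.1 TPM in BPA replicates 1, 2 and 3, against 21.5, 21.7 and 22.4 TPM in control replicates 1, 2 and 3. Its BPA libraries spread to both sides of the control libraries.

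The lid lay between core and base in BPA replicate 3 and was the lowest of these classes in BPA replicate 1 and control replicate 1. Its class mean was 0.04, -0.03 and -0.22 in BPA replicates 1, 2 and 3, against 0.03, -0.05 and 0.02 in the controls. The median log2 change of the 8 genes was -0.13, with 6 below control, and BPA replicate 3 was lowest for those 6. With BPA replicate 3 left out the median was -0.01 and 4 of 8 lay below. With control replicate 2 left out as well the median was -0.05, again with 4 of 8 below. Base minus lid was 0.01, 0.05 and 0.07 with BPA, against 0.0006, 0.03 and -0.03 in control. Core minus lid was 0.02, -0.02 and -0.17 with BPA, against 0.05, -0.05 and 0.005 in control. In summed TPM the core to base ratio was 2.30, 2.14 and 1.83 with BPA, against 2.39, 2.17 and 2.34 in control, and the core to lid ratio was 2.79, 2.75 and 2.62 with BPA, against 2.74, 2.77 and 2.68 in control. The core to lid ratio thus varied less over the libraries than the core to base ratio, with BPA replicate 3 lowest in both. These sums rested largely on few genes. In BPA replicate 3 PSMB4 gave 581 of 1570 TPM of the core and PSMD8 226 of 599.9 TPM of the lid. PSMC5 and PSMD2 gave 255 and 339 of 857.5 TPM of the base there.

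Of the lid genes PSMD6 had the smallest p and the widest range, 77.2, 71.3 and 54.4 TPM in BPA replicates 1, 2 and 3, against 83.0, 73.8 and 80.0 TPM in control replicates 1, 2 and 3 (log2 change -0.23, SE 0.15, adjusted p = 0.901 by limma). Its lowest value was in BPA replicate 3, and control replicate 2 overlapped BPA replicate 1. Leaving out BPA replicate 3, its log2 change was -0.09 (SE 0.08). PSMD8, the most abundant lid gene, had 304, 287 and 226 TPM in BPA replicates 1, 2 and 3, against 323, 276 and 319 TPM in control replicates 1, 2 and 3. PSMD14, the metalloprotease that cuts ubiquitin from substrates, had the lowest level of the lid, 9.08, 8.28 and 6.59 TPM in BPA replicates 1, 2 and 3, against 8.69, 8.14 and 8.50 TPM in control replicates 1, 2 and 3. Its BPA libraries surrounded the control libraries. PSMD7, which pairs with PSMD14, averaged 125 ± 17.2 TPM in the BPA libraries, against 140.3 ± 12.4 TPM in the controls, PSMD13 averaged 97.1 ± 11.6 TPM in the BPA libraries, against 109 ± 6.01 TPM in the controls and PSMD12 averaged 19.1 ± 3.67 TPM in the BPA libraries, against 19.5 ± 0.580 TPM in the controls.

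PSMD3 and PSMD11 lay above control, unlike the other lid genes, and were named after their values were seen. PSMD11, whose higher level raises proteasome assembly in human stem cells, had 25.2, 24.7 and 30.6 TPM in BPA replicates 1, 2 and 3, against 22.1, 25.6 and 22.7 TPM in control replicates 1, 2 and 3. PSMD3 had 67.4, 72.2 and 78.0 TPM in BPA replicates 1, 2 and 3, against 63.8, 68.6 and 66.1 TPM in control replicates 1, 2 and 3. BPA replicate 3 was the highest library for both, and control replicate 2 the highest control library. Neither passed the test (log2 change 0.18, SE 0.12 for PSMD11 and log2 change 0.13, SE 0.09 for PSMD3, both with an adjusted p of 0.901 by limma), and for both the BPA and control libraries overlapped. When BPA replicate 3 was omitted, their log2 changes were 0.08 each.

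**Figure D3:**
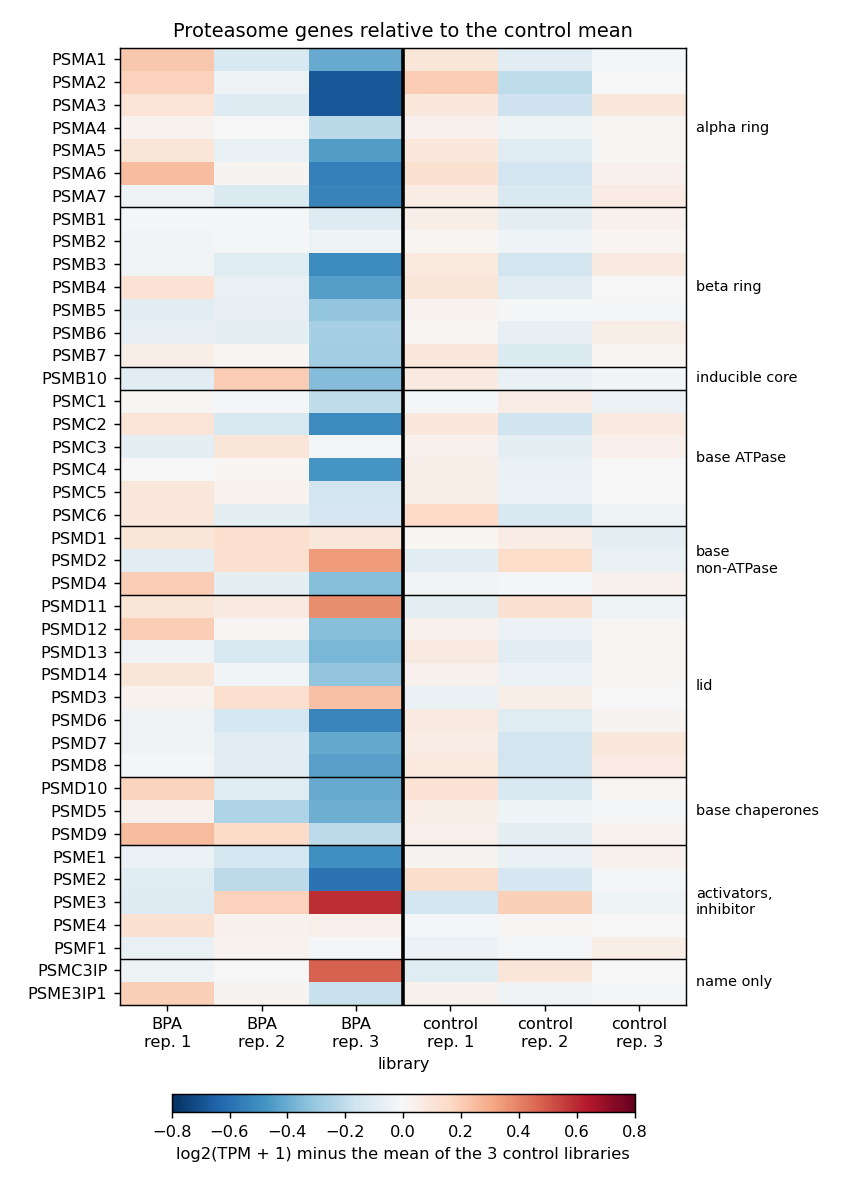
Log2(TPM + 1) minus the mean of the 3 control libraries for the 42 tested genes (rows, by class) in each library (columns, BPA left of control). Blue is below and red above the control mean. BPA replicate 3 is the lowest library for 33 genes and the highest for 5 (PSMD2, PSMD3, PSMD11, PSME3 and PSMC3IP). Among the controls, control replicate 2 is also the lowest for 30 of the 33 and the highest for the 5, in fainter colours.

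Most proteasome genes that were lowest in BPA replicate 3 were also lowest in control replicate 2 among the controls (30 of 33). So were most tested genes, 3586 of the 5208 that were lowest in BPA replicate 3. On the high side this held for 5 of 5 proteasome genes and 4238 of 4771 tested genes. In all, BPA replicate 3 was the lowest library for 33 of 42 proteasome genes, beside 42.4% of all tested genes, and the highest for 5, beside 38.9%. Control replicate 2 was the lowest control library for 31 of 42, beside 35.4%, and the highest for 8, beside 47.1%. Both held for 30 of 42 genes on the low side, 13 in the core, 4 in the base and 6 in the lid, beside 29.2% of all tested genes, and for 5 of 42 on the high side, beside 34.5%. Over scalings that moved the level of a whole library, the count lowest in BPA replicate 3 was from 30 to 37, while the share of all genes was from 39.6% to 55.2%. These counts describe single libraries and give no test of BPA.

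Apart from BPA replicate 3 the proteasome genes were steady. Over the other 5 libraries 36 of 42 stayed within a log2 range of 0.3, beside 48.3% of all tested genes. The median range over these 5 libraries was 0.20 for the proteasome genes and 0.31 for all tested genes. These comparisons were not matched for level. An average log2(TPM + 1) of at least 3 was reached by 40 of 42 proteasome genes and 7453 of 12277 tested genes.

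The 3 assembly chaperones of the base were lowest in BPA replicate 3, as were the core genes. PSMD5, which binds ATPases during their assembly, had 15.4, 12.5 and 11.2 TPM in BPA replicates 1, 2 and 3, against 15.6, 14.6 and 14.9 TPM in control replicates 1, 2 and 3 (log2 change -0.20, SE 0.13, adjusted p = 0.901 by limma). BPA replicates 2 and 3 lay below all control libraries and BPA replicate 1 among them. With BPA replicate 3 left out its log2 change was -0.11 (SE 0.11). Without BPA replicate 1 its unadjusted p was 0.0241 (adjusted p = 0.409 by limma, log2 change -0.32), where 3.41% of all tested genes lay lower and 4.32% higher at that level. PSMD9 had 50.7, 47.1 and 36.4 TPM in BPA replicates 1, 2 and 3, against 43.6, 40.3 and 43.3 TPM in control replicates 1, 2 and 3. BPA replicates 1 and 2 were the highest libraries and BPA replicate 3 the lowest. Leaving out BPA replicate 3, its log2 change was 0.20 (SE 0.08, unadjusted p = 0.0432 and adjusted p = 0.895 by limma), where 3.34% of all tested genes lay higher and 2.23% lower at that level. With all libraries it was 0.06 (SE 0.14) and turned to -0.02 under median centring and -0.0061 under quantile normalization. PSMD10, also called gankyrin, had 50.9, 42.0 and 33.7 TPM in BPA replicates 1, 2 and 3, against 48.7, 41.2 and 45.2 TPM in control replicates 1, 2 and 3.

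Among the activators, PSME1 and PSME2 lay below control and PSME3 above it, none past the threshold. PSME1 and PSME2 form the interferon-inducible cap of the core, and their genes lie with 1 protein-coding gene between them in the RefSeq annotation of the dog assembly UU_Cfam_GSD_1.0. PSME2 had the smallest p of all proteasome genes, 109.8, 102 and 77.5 TPM in BPA replicates 1, 2 and 3, against 129.5, 107 and 117 TPM in control replicates 1, 2 and 3 (log2 change -0.30, SE 0.16, adjusted p = 0.901 by limma). BPA replicate 1 overlapped control replicate 2, and BPA replicates 2 and 3 lay below all control libraries. PSME1 had 158, 148 and 116 TPM in BPA replicates 1, 2 and 3, against 166, 157 and 167 TPM in control replicates 1, 2 and 3 (log2 change -0.23, SE 0.13, adjusted p = 0.901 by limma). BPA replicate 1 lay just above control replicate 2, and the other BPA libraries below all controls. The ratio of PSME1 to PSME2 was 1.44, 1.45 and 1.50 with BPA and 1.28, 1.47 and 1.43 in control. When BPA replicate 3 was omitted, the log2 changes were -0.15 (SE 0.10) for PSME2 and -0.10 (SE 0.07) for PSME1.

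PSME3 makes the nuclear cap of the core, and had 103, 126 and 167 TPM in BPA replicates 1, 2 and 3, against 99.2, 126 and 108 TPM in control replicates 1, 2 and 3. BPA replicate 3 was highest, BPA replicate 2 and control replicate 2 lay close together, and the groups overlapped (log2 change 0.22, SE 0.20, adjusted p = 0.901 by limma). With BPA replicate 3 left out the log2 change of PSME3 was 0.04 (SE 0.14). The ratio of PSME3 to PSME1 was 0.65, 0.85 and 1.44 with BPA and 0.60, 0.81 and 0.65 in control, so PSME3 exceeded PSME1 in BPA replicate 3 and in no other library. PSME4, a large single-chain activator known for its part in histone degradation, had 14.3, 13.4 and 13.5 TPM in BPA replicates 1, 2 and 3, against 12.9, 13.2 and 13.1 TPM in control replicates 1, 2 and 3. Each BPA library lay above each control library by a small margin (log2 change 0.07, SE 0.08, adjusted p = 0.901 by limma), a direction that turned to -0.02 under both median centring and quantile normalization. PSMF1 overlapped between groups at 18.0, 19.1 and 18.5 TPM in BPA replicates 1, 2 and 3, against 18.1, 18.7 and 19.5 TPM in control replicates 1, 2 and 3, with a log2 range of 0.11 over all libraries.

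**Figure D4:**
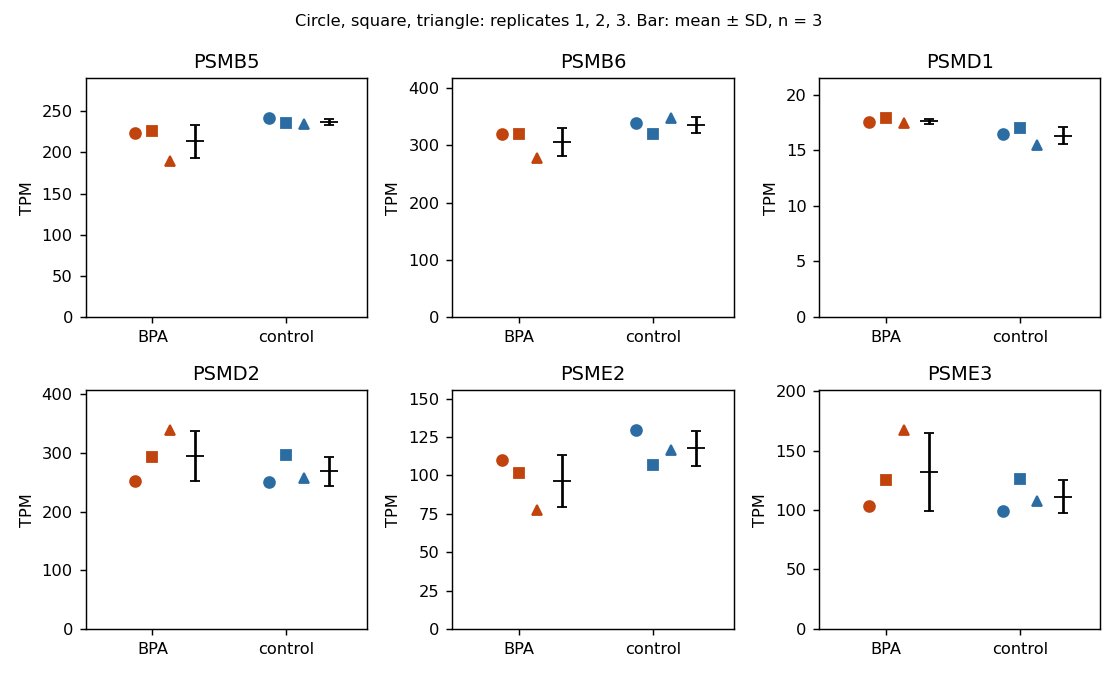
TPM of 6 proteasome genes in each BPA and control library, with mean ± SD (n = 3) to the right of each group. PSMB5 and PSMB6 lie lower and PSMD1 higher with BPA without overlap, whereas PSMD2, PSME2 and PSME3 overlap and have their most extreme value in BPA replicate 3.

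The names that match without being subunits did not share 1 pattern. PSMC3IP had 11.3, 11.7 and 16.6 TPM in BPA replicates 1, 2 and 3, against 10.8, 12.6 and 11.7 TPM in control replicates 1, 2 and 3. Its highest library was BPA replicate 3, as for PSMD2. PSME3IP1 averaged 11.0 ± 1.51 TPM in the BPA libraries, against 10.9 ± 0.270 TPM in the controls, with BPA replicate 1 highest and BPA replicate 3 lowest. Without both, 32 of 40 genes lay below control and their median was -0.09.

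Genes that serve the proteasome under other names were counted from lists kept beside the subunits. In none of these 5 lists did a gene pass (0 of 4, 5, 6, 4 and 12 tested genes, adjusted by limma or at an unadjusted p under 0.05). Of the subunits and deubiquitinases named otherwise, 3 of 4 lay below control, with a median log2 change of -0.12. Of all tested genes 43.4% lay below control. SEM1, a small lid subunit, had 22.1, 19.8 and 12.9 TPM in BPA replicates 1, 2 and 3, against 23.8, 20.2 and 22.2 TPM in control replicates 1, 2 and 3, with BPA replicate 3 lowest. UCHL5, a deubiquitinase of the base, had 28.8, 23.8 and 17.3 TPM in BPA replicates 1, 2 and 3, against 27.7, 25.0 and 25.9 TPM in control replicates 1, 2 and 3. Of the assembly factors of core and base 4 of 5 tested lay below control (median -0.13), and PSMG3 had 73.7, 81.1 and 62.3 TPM in BPA replicates 1, 2 and 3, against 80.8, 78.3 and 87.3 TPM in control replicates 1, 2 and 3. PSMG1 had 55.3, 47.5 and 39.1 TPM in BPA replicates 1, 2 and 3, against 53.7, 48.1 and 52.5 TPM in control replicates 1, 2 and 3. For 4 of these 5 genes, beside 42.4% of all tested genes, the lowest library was BPA replicate 3. Without it the median of the subunits and deubiquitinases was -0.04 and that of the assembly factors -0.0033.

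The genes of transcriptional control mostly lay above control. The list held the transcription factors NFE2L1, NFE2L2 and TFE3 and the NFE2L1-processing genes DDI2, NGLY1 and VCP. Of these 5 of 6 lay above control (median 0.17 on the log2 scale, and 0.08 without BPA replicate 3), and BPA replicate 3 was the highest library for 4 of 6. Among all tested genes 6952 of 12277 lay above control, and 38.9% had BPA replicate 3 as their highest library. NFE2L1 had 355, 441 and 588 TPM in BPA replicates 1, 2 and 3, against 332, 431 and 371 TPM in control replicates 1, 2 and 3 (log2 change 0.26, SE 0.21). It overlapped between groups, with control replicate 2 the highest control library. VCP, the segregase that pulls NFE2L1 and other proteins from membranes, had 202, 224 and 323 TPM in BPA replicates 1, 2 and 3, against 173, 232 and 178 TPM in control replicates 1, 2 and 3 (log2 change 0.35, SE 0.21). Control replicate 2 was its highest control library, and the groups overlapped. Leaving out BPA replicate 3, the log2 changes were 0.07 for NFE2L1 and 0.15 for VCP. Within the ubiquitin and shuttle list 7 of 12 lay above control (median 0.06, and -0.0039 without BPA replicate 3) and BPA replicate 3 was highest for 7 of 12 and lowest for 5. RAD23B, a shuttle factor, had 66.9, 61.6 and 54.5 TPM in BPA replicates 1, 2 and 3, against 70.6, 64.8 and 69.7 TPM in control replicates 1, 2 and 3. RPS27A, a ubiquitin precursor fused to a ribosomal protein, had 1988, 1920.0 and 1216 TPM in BPA replicates 1, 2 and 3, against 2289, 1841 and 2132 TPM in control replicates 1, 2 and 3. Both were lowest in BPA replicate 3 and overlapped between the groups. Of the nuclear import and holding list 3 of 4 lay above control (median 0.08, and 0.02 without BPA replicate 3). ZFAND5, a proteasome-stimulating protein, had 409.6, 444 and 474 TPM in BPA replicates 1, 2 and 3, against 367, 407 and 337 TPM in control replicates 1, 2 and 3, each BPA library above each control library (log2 change 0.26, SE 0.11, adjusted p = 0.901 by limma). When BPA replicate 3 was omitted, its log2 change was 0.21. A BPA group higher without overlap was seen for 5.38% of all tested genes. TXNL1, a thioredoxin bound to the cap, had 22.7, 20.7 and 15.2 TPM in BPA replicates 1, 2 and 3, against 23.1, 19.96 and 21.0 TPM in control replicates 1, 2 and 3. TAP2, an interferon-inducible peptide transporter, had 14.5, 21.6 and 54.7 TPM in BPA replicates 1, 2 and 3, against 13.0, 24.9 and 16.8 TPM in control replicates 1, 2 and 3. The groups overlapped, and its log2 change was 0.53 (SE 0.51, adjusted p = 0.901 by limma), against 0.0099 without BPA replicate 3.

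**Figure D5:**
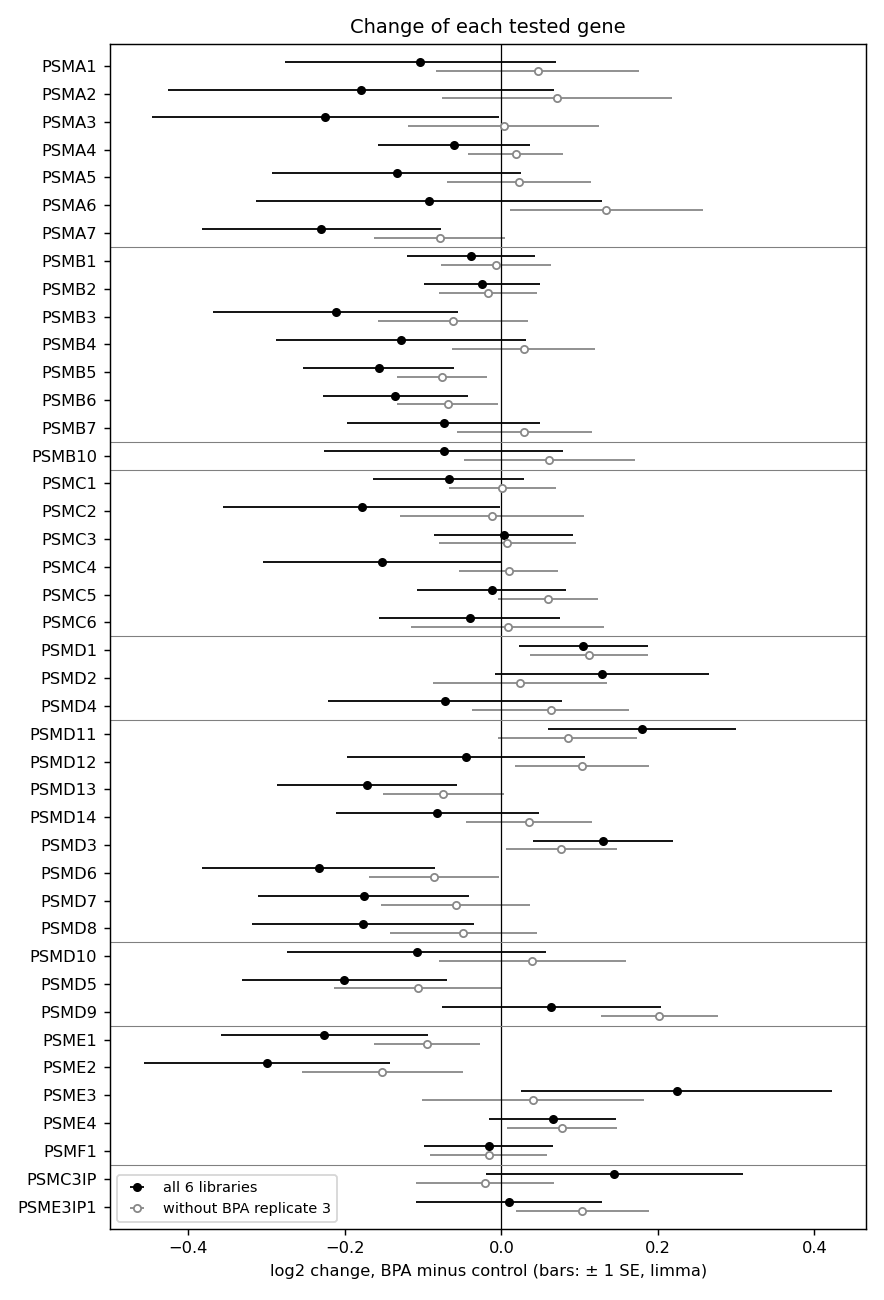
Log2 change (BPA minus control, ± 1 SE, limma) of the 42 tested proteasome genes with all 6 libraries (filled points) and without BPA replicate 3 (open points), classes divided by lines. With all libraries 32 points lie below 0, against 16 without BPA replicate 3, and no gene passes the adjusted threshold in either.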

How the data were processed

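Messenger RNA was measured in 6 libraries, 3 with BPA and 3 with DMSO. Per the labels' protocols, RNA from a Qiagen RNeasy extraction went into Illumina TruSeq Stranded mRNA libraries. The authors deposited 1 table of 23299 gene names in log2 values of TPM. Undoing the log2(TPM + 1) step brought each column to the same total, the one TPM is scaled to. Aligner, counting tool and genome build: not given in the sources used here. TPM keeps no depth, so no counting interval is given.

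A gene entered testing (12277 genes) when log2(TPM + 1) averaged 1 or more. The test was limma 3.58.1 (R 4.3.3), two-sided, without covariates and with a trended prior, Benjamini-Hochberg adjusted over all tested genes at 0.05, and was tested on simulated data first. Values after ± are SDs over 3 libraries unless stated. No exact permutation p is given for single genes, since 3 against 3 cannot go below 0.1. Class means and list counts are descriptions. All 43 names were symbols in the RefSeq table of UU_Cfam_GSD_1.0, used for names and gene order. The members and lists were chosen with earlier results of these data known. Values by library are given for catalytic subunits, activators and the inhibitor, genes without overlap, and in each class the gene of smallest p, highest or lowest level or widest range, plus the 2 genes of smallest p per pathway list (1 gene for the interferon-inducible list, whose other gene and counts are not reported here); other genes were named after their values were seen. Alternatives changed the filter, pseudocount, scaling, variance model, weights, replicate block and libraries used. Counts of lowest libraries by scaling, and pathway and marker values without BPA replicate 3, were chosen after seeing the data. POMP, THY1, AIF1, CD163, RGS5, EPCAM and CDH1 of the lists were not analysed here, and a planned promoter motif search was not run.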

Additional observations from a re-analysis of the deposited data

How the results depend on the processing

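No proteasome gene passed the adjusted threshold under any alternative except limma array weights, which called 17 of 42 and 4629 genes in all (22 of 42 at an unadjusted p under 0.05); that estimate did not converge and gave BPA replicate 2 a weight of 6489 beside 0.03 for BPA replicate 3. Over all genes 0 passed with all libraries, 6 without the filter on low values, 1 without BPA replicate 3, 2 without BPA replicate 3 and control replicate 2, and 0 under the other alternatives. Leaving out libraries gave 0 to 2 genes past the threshold and 0 to 1 proteasome genes at an unadjusted p under 0.05 (PSMD5 without BPA replicate 1, PSMD9 without BPA replicate 3). Deviation correlations between libraries that share a replicate number were 0.718, -0.440 and -0.233 for replicates 1, 2 and 3. They rest on 3 libraries a group, with BPA replicate 3 apart from the others, so they cannot settle whether the replicates were paired. With the replicate block 0 genes passed by limma, with 264 at an unadjusted p under 0.05 against 439 without it.

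The median log2 change of the base was -0.12 under median centring, against -0.04. As libraries were left out, the median ran from -0.25 to 0.011 for the core, from -0.11 to 0.032 for the base and from -0.21 to -0.0067 for the lid, and BPA minus control of core minus base from -0.15 to -0.027. The cause was not tested. Single genes changed sign with these log2 changes, none past the threshold except as above. With array weights they were 0.21 for PSMB10, 0.021 for PSMC1, 0.0088 for PSMC4, 0.025 for PSMC5 and 0.0052 for PSMD12. Under median centring they were -0.081 for PSMC3, -0.020 for PSMD9, -0.019 for PSME4 and -0.074 for PSME3IP1. Quantile normalization gave -0.074 for PSMC3, -0.0061 for PSMD9, -0.019 for PSME4 and -0.077 for PSME3IP1. Median-ratio scaling gave -0.013 for PSMC3 and -0.0053 for PSME3IP1. Rescaling without the 20 most abundant genes gave -0.0011 for PSMC3. As libraries were left out, log2 changes ran over these ranges: -0.26 to 0.046 for PSMA1, -0.36 to 0.071 for PSMA2, -0.39 to 0.0029 for PSMA3, -0.11 to 0.018 for PSMA4, -0.25 to 0.023 for PSMA5, -0.26 to 0.13 for PSMA6, -0.25 to 0.029 for PSMB4, -0.13 to 0.029 for PSMB7, -0.21 to 0.061 for PSMB10, -0.11 to 0.032 for PSMC1, -0.044 to 0.045 for PSMC3, -0.24 to 0.0096 for PSMC4, -0.062 to 0.060 for PSMC5, -0.11 to 0.041 for PSMC6, -0.21 to 0.063 for PSMD4, -0.16 to 0.10 for PSMD12, -0.17 to 0.035 for PSMD14, -0.25 to 0.040 for PSMD10, -0.031 to 0.20 for PSMD9, -0.041 to 0.012 for PSMF1, -0.021 to 0.24 for PSMC3IP and -0.079 to 0.10 for PSME3IP1; 18 of 42 genes changed sign without BPA replicate 3. TPM carries no depth, so counting error is unknown, and 3 libraries a group limit what could be detected.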
